A study of Homo sapiens with 4 samples.

Results

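Gene expression in MG cells treated with 5-azacytidine was set against that in non-MG cells that had received vehicle, 2 arrays of the 4 in the series. MG and non-MG cells are subpopulations of HCT116, a human colorectal carcinoma cell line: MG cells had crossed the membrane of a transwell migration chamber in repeated rounds of selection, and non-MG cells had stayed on its upper side. The drug was given at 5 µM for 48 h, and the other 2 arrays hold MG cells with vehicle and non-MG cells with 5-azacytidine. The pair was chosen by its labels alone, and the question it addresses is how near the drug brought the migrating cells to the untreated state of the cells that did not migrate. Each condition has 1 array, each subpopulation is a selected line rather than a set of independent clones, and no difference below has a replicate check or a test. The members of the comparison are 16062 genes of 40909 on the array, those with a probe well above background on both arrays of the pair, and 12936 of them have a RefSeq symbol.

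5-Azacytidine is a cytidine analog that is built into nucleic acids, traps DNA methyltransferases on DNA and so leads to loss of cytosine methylation as cells divide. Genes that are held silent by methylated promoters, such as cancer-testis antigens and some imprinted genes, are known to come on after this treatment. Epithelial-mesenchymal transition is the loss of junction proteins such as E-cadherin and the gain of mesenchymal proteins such as vimentin that accompanies migration of carcinoma cells. In whole-culture RNA, fewer cells that express a gene and less RNA per cell cannot be told apart.

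The log2 level of a gene here is the log2 of its background-corrected intensity minus the 75th percentile of its array, so that 0 is that percentile, and a log2 ratio is a difference between 2 such levels. Spot error is the SD expected from repeat spots of a probe of the same brightness, carried through to the ratio. It covers spotting and scanning and not differences between cultures. The array of the treated MG cells had 21382 probes well above background and that of the untreated non-MG cells 21881, of 50594, and all 4 arrays lay on 1 slide. The 2 arrays of the pair lay in different rows and different columns of that slide, so position, cell type and treatment cannot be told apart. The other 2 arrays do not resolve this, since each row held 1 cell type and each column 1 treatment. Over all 4 arrays, row cannot be told apart from cell type, nor column from treatment. Of 11 markers of colon epithelium, 7 were well above background on each of the 4 arrays (EPCAM, CDH1, KRT8, KRT18, KRT19, CDX1 and CDX2), whereas VIL1, CDH17, LGALS4 and CEACAM5 were not. Fibroblast markers were well above background for 1 or 2 of 8, endothelial markers for 1 of 5 and leukocyte markers for 2 or 3 of 6. All 4 neuronal markers passed on each array, with a summed intensity of 788 to 1174.

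Treated MG cells stood farther from untreated non-MG cells than untreated MG cells did. Of the 16062 genes, 1396 were higher past 1.5-fold in the treated MG cells, a share of 8.69%, and 1746 were lower, a share of 10.9%. The remaining 12920 genes lay within 1.5-fold, and the median over all genes was -0.03 on the log2 scale, with the central 90% between -0.83 and 0.73. Past 4-fold, 50 genes were higher and 20 lower. The median spot error of a ratio was 0.10, and 2815 of the 3142 genes past 1.5-fold had a ratio over 3 times their spot error. Since 1.5-fold is 0.58 on the log2 scale, a gene with the median spot error passes this by the cut alone. A gene with several probes gave a measure that does not depend on 1 spot: of 469 such genes past 1.5-fold, 464 had all probes on the same side of 0 and 279 had every probe past 1.5-fold. These genes were picked by the mean of the same probes. The median range between probes was 0.23 over all genes with several, so agreement in sign was largely set by that choice. The balance between higher and lower genes followed the scaling. Of the genes past 1.5-fold, 44.4% were higher here, 68.6% after centring each array on its median, which raised the median of all genes by 0.16, and 54.8% after normexp background correction. Normexp was run with an offset of 50 added to each intensity, which by construction draws the ratios of dim genes towards 0. The 75th percentiles were 87.0 on the untreated non-MG array and 96.4 on the treated MG array.

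**Figure D1:**
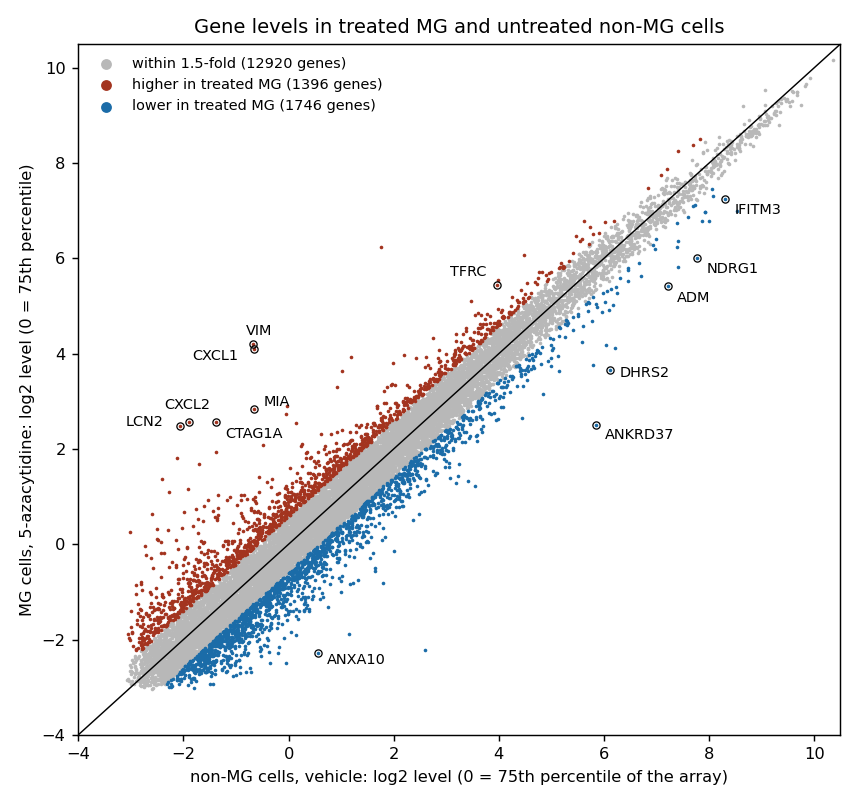
Log2 level of each of 16062 genes in untreated non-MG cells (x axis) and treated MG cells (y axis), where 0 is the 75th percentile of the array and the line marks equal levels. Red points are the 1396 genes higher and blue points the 1746 genes lower past 1.5-fold, and black circles mark the genes labelled, with VIM, CXCL1, LCN2 and CXCL2 farthest above the line among them and ANKRD37 and ANXA10 farthest below it.

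On the 15707 genes that were well above background on all 4 arrays, each pair of arrays can be given on the same footing. Treated MG against untreated non-MG cells had 3087 genes past 1.5-fold (19.7%) and a median absolute log2 ratio of 0.29. untreated MG against untreated non-MG cells, which uses the same non-MG array, had 2187 (13.9%) and 0.25, and the count past 2-fold was 381, compared with 782 for treated MG cells. With both cell types treated, 2053 genes (13.1%) were past 1.5-fold, with a median absolute log2 ratio of 0.25. Pairs that differ in the drug alone had fewer, with 804 genes (5.12%) in the MG cells and 562 (3.58%) in the non-MG cells. The other diagonal pair, untreated MG over treated non-MG cells, had 1880 genes (12%) past 1.5-fold. The count for treated MG against untreated non-MG cells was above that for untreated MG against untreated non-MG cells under each of the 7 alternatives run, of which those without a filter on background count all 40909 genes. After median centring, however, it was 3399, below the 3773 of the other diagonal pair and the 3402 of the treated MG and non-MG cells.

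**Figure D2:**
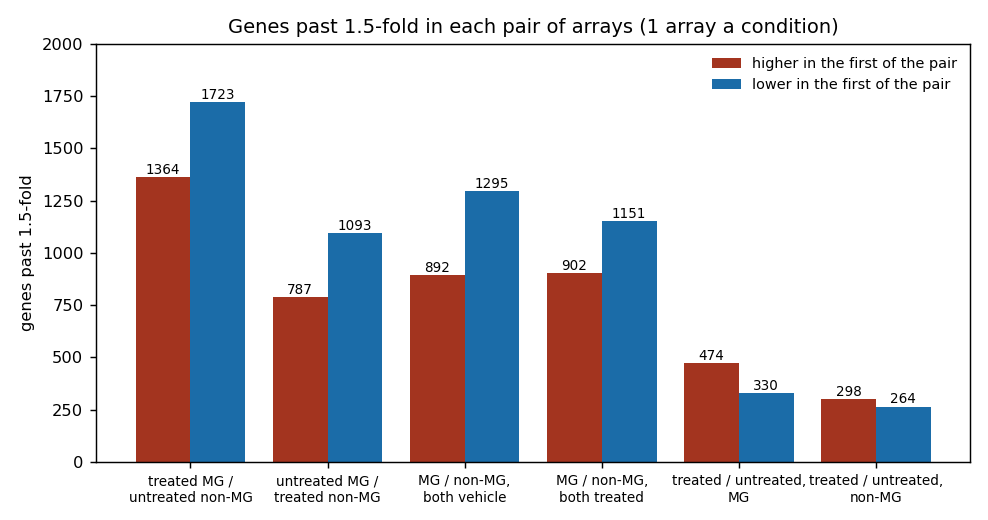
Number of genes past 1.5-fold (y axis) in each of the 6 pairs of arrays, over the same 15707 genes, higher (red) or lower (blue) in the first array named. The pair of treated MG and untreated non-MG cells has the tallest bars, 1364 genes higher and 1723 lower, and the 2 pairs that differ in treatment alone have the shortest.

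The largest positive ratios of the pair fell mostly into 3 patterns over the 4 arrays. VIM, which codes for the mesenchymal filament protein vimentin, had log2 levels of -0.68 in untreated non-MG cells, 0.60 in treated non-MG cells, 0.71 in untreated MG cells and 4.20 in treated MG cells. Its ratio in the pair was 4.88 (29.4-fold, spot error 0.13), the largest of all 16062 genes. VIM rests on 1 probe with 1 spot, as do LCN2, NUPR1 and ALPG. The same holds below for CTAG1A, MIA, ANXA8L1, ANKRD37, ANXA10 and DHRS2. The treated MG array stood alone far above the other 3 for VIM, and the untreated non-MG array was the lowest. LCN2, which codes for the iron-carrier protein lipocalin 2, went from -2.07 through 0.23 and 1.27 to 2.49 in the same order of arrays, a ratio of 4.55 (23.5-fold, spot error 0.22). NUPR1, a stress-induced nuclear protein, was at -2.60, -1.57, -0.96 and 0.64, a ratio of 3.24. For these 3 genes both the treated non-MG array and the untreated MG array lay between the arrays of the pair. ALPG, a germ-cell alkaline phosphatase, was at -0.03 on the untreated non-MG array and at 2.32, 2.13 and 2.89 on the others, so that 3 arrays lay together above it.

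In the second pattern both treated arrays were high and both untreated arrays low. CTAG1A, the cancer-testis antigen NY-ESO-1, was at -1.38 in untreated non-MG, 2.12 in treated non-MG, -1.72 in untreated MG and 2.57 in treated MG cells, a ratio of 3.95 (15.5-fold, spot error 0.17). It has a near-identical copy, CTAG1B, that the probe may also read. H19, an imprinted long noncoding RNA, was at -1.92, 2.21, -1.56 and 1.17, a ratio of 3.08 as the mean of 2 probes. Here the treated non-MG array, and not that of the treated MG cells, was the highest. LINC00958, GCNA, a germ-cell nuclear protein, and LY6K, a testis-expressed surface protein, had the same arrangement with ratios of 3.77, 2.78 and 2.63. ICAM2, an adhesion molecule of endothelial and blood cells, and CT45A5, a cancer-testis antigen of a family with near-identical copies, were not well above background in untreated MG cells and had ratios of 3.39 and 3.28.

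The third pattern set both MG arrays above both non-MG arrays. MIA, a secreted protein that lowers attachment of cells to matrix, was at -0.66 in untreated non-MG, -0.18 in treated non-MG, 2.36 in untreated MG and 2.83 in treated MG cells, a ratio of 3.49 (spot error 0.13). ANXA8L1, a calcium- and lipid-binding annexin with near-identical copies, was at -2.51, -2.09, 0.12 and 0.32, a ratio of 2.83. The arrays of the 2 cell types did not overlap for either gene. C3orf33 matched none of the patterns: its 1 probe, with 1 spot, was at 1.94 on the treated MG array and between -1.50 and -1.39 on the other 3.

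Most of the genes with a symbol that had the largest negative ratios were low on both MG arrays. ANKRD37, a small ankyrin-repeat protein and known target of hypoxia-inducible factor, was at 5.85 in untreated non-MG, 5.46 in treated non-MG, 3.31 in untreated MG and 2.50 in treated MG cells, a ratio of -3.35 (spot error 0.08). ANXA10, an annexin of gastric-type epithelium, was at 0.56, 0.16, -2.45 and -2.29, a ratio of -2.85. DHRS2, a mitochondrial reductase, was at 6.12, 6.45, 2.66 and 3.65, a ratio of -2.47. For each of the 3 genes the non-MG arrays lay above the MG arrays without overlap. ANKRD37 was lowest on the treated MG array, while DHRS2 and ANXA10 lay above their levels in untreated MG cells. ARRDC4, an arrestin-like regulator of glucose uptake, had a ratio of -2.61, ANGPTL4, a secreted inhibitor of lipoprotein lipase, of -2.09, BCL11A, a transcriptional repressor, of -2.05, EGR1, an immediate-early transcription factor, of -2.04 and ANK3, a membrane-skeleton anchor, of -2.00. TXLNG was the exception: its 1 probe, with 1 spot, read -0.56 on the treated MG array and between 1.53 and 1.92 on the other 3, for a ratio of -2.20.

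**Figure D3:**
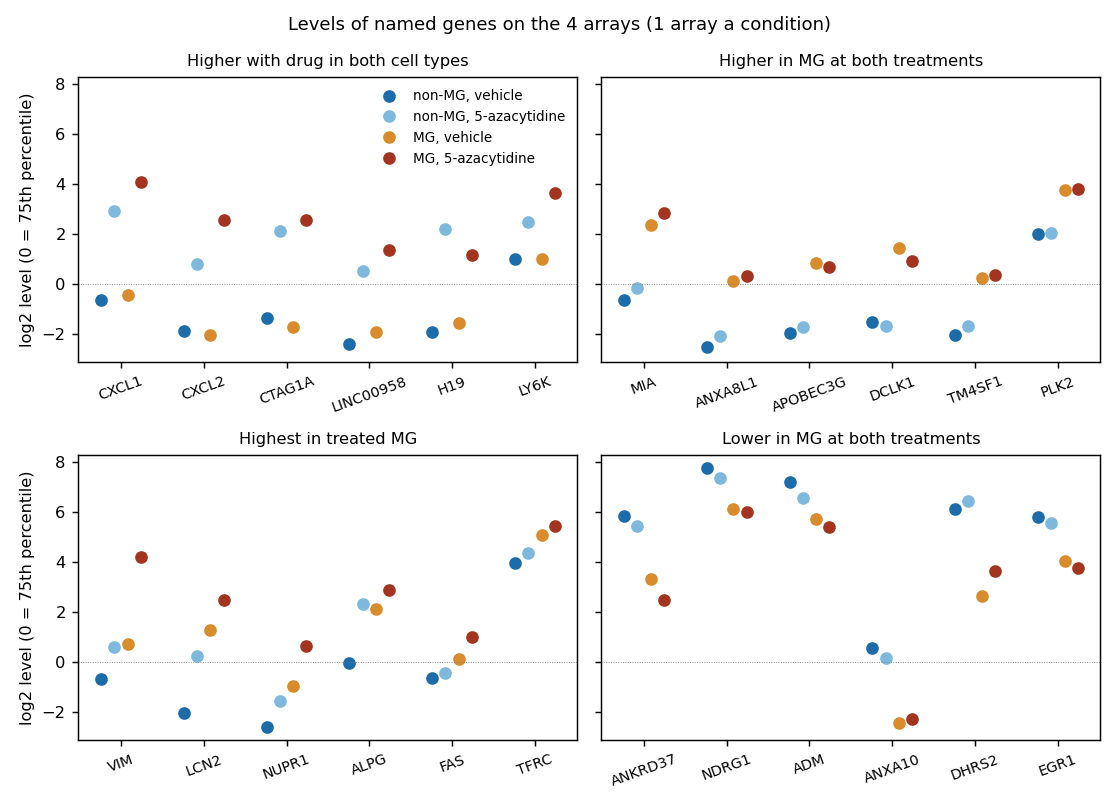
Log2 level (y axis, 0 is the 75th percentile of the array) of 24 named genes on the 4 arrays, 1 point an array and no error bars because each condition has 1 array. The panels set apart genes high on both treated arrays, genes high on both MG arrays, genes highest on the treated MG array such as VIM at 4.20, and genes low on both MG arrays such as ANKRD37.

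Targets of NF-kB and chemokines leaned higher in the treated MG cells. NF-kB is a family of transcription factors that drive inflammatory genes, and the CXC chemokines among them draw neutrophils through the receptor CXCR2. Over all measured genes 8.69% were higher and 10.9% lower past 1.5-fold. Of 38 listed genes 20 were measured on both arrays, of which 11 were higher past 1.5-fold and 0 lower, with a median log2 ratio of 0.67 beside -0.03 over all genes. Another 9 were well above background in the treated MG cells and not in the untreated non-MG cells, as were 931 of the 40909 genes on the array. CXCL1 was at -0.67 in untreated non-MG, 2.93 in treated non-MG, -0.44 in untreated MG and 4.09 in treated MG cells, a ratio of 4.76 (27.1-fold, spot error 0.12) as the mean of 2 probes. CXCL2 was at -1.89, 0.80, -2.04 and 2.57, a ratio of 4.46. CXCL3 was at -2.29 in untreated non-MG, -1.45 in treated non-MG and 0.29 in treated MG cells, a ratio of 2.57, and was not well above background in untreated MG cells. In all 3 chemokine genes both treated arrays lay above both untreated arrays, with the treated MG array the highest. Among regulators of the pathway, BIRC3, an inhibitor of apoptosis, was 2.64-fold higher, and the log2 ratio was 0.94 for TNFAIP3, a deubiquitinase that restrains the pathway, and 0.87 for NFKBIA, the inhibitor that holds NF-kB in the cytoplasm. NFKBIZ and NFKBIE, of the inhibitor family, were at 0.45 and 0.40, and the subunits NFKB1, RELB and NFKB2 at 0.64, 0.29 and -0.26. CXCL8 was at least 3.47-fold higher in treated MG cells, CXCL5 at least 4.21-fold and CCL20 at least 13.8-fold, while ICAM1 and TNF had bounds of 1.54-fold and 2.02-fold. These bounds divide the normalised signal in treated MG cells by the detection limit of the untreated non-MG array (the dimmest probe that passed there), or by the probe's own signal where that is higher. On the genes measured on all 4 arrays, 18 of the list, the median was 0.67 for the pair, 0.02 for untreated MG over untreated non-MG cells, 0.50 for the drug in MG cells and 0.27 for the drug in non-MG cells. CXCL1, CXCL2 and CXCL3 carry a match to an NF-kB motif in their promoters, which are printed because these 3 were the chemokine genes measured on both arrays. The promoters run from 250 bases before to 50 after the start of the gene, 5′ to 3′ on the gene's strand, are taken from RefSeq on GRCh38.p14, and have GGAATTTCC in capitals. CXCL1 lies at chr4:73869143-73869442 (plus strand), CXCL2 at chr4:74099146-74099445 (minus strand) and CXCL3 at chr4:74038640-74038939 (minus strand).
CXCL1: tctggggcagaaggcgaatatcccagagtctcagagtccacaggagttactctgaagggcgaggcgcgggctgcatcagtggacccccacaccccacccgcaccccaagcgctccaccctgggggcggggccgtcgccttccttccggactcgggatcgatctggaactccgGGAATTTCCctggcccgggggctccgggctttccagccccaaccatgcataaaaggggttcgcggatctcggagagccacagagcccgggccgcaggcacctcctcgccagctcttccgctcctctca
CXCL2: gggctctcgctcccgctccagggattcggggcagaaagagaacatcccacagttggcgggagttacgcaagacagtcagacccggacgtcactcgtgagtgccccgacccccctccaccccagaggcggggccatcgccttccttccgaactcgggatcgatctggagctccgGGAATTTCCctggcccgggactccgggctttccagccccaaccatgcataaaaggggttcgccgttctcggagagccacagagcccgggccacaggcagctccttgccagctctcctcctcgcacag
CXCL3: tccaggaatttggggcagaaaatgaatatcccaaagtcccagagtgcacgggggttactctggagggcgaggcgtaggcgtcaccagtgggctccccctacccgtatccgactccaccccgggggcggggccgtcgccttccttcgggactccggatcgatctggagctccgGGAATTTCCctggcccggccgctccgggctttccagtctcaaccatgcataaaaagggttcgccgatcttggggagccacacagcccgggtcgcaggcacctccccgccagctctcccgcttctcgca

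GGAATTTCC or its reverse complement GGAAATTCC was found in 129 of 27305 promoters (0.472%) and in 43 of 10181 promoters of measured genes (0.422%). Of 28 promoters of the NF-kB list, 10 held it (CXCL1, CXCL2, CXCL3, CXCL5, CXCL6, CXCL8, NFKBIA, NFKBIZ, NFKB1 and ICAM1). Among these 10 genes, 6 were measured on both arrays and 5 were higher past 1.5-fold, with NFKBIZ at 0.45, and 3 were well above background on the treated MG array of the pair only. Of the 18 promoters without it, 9 belonged to measured genes, 5 of them higher past 1.5-fold. The chemokine promoters resemble each other, so they are not independent examples, and a match in letters is no evidence of binding.

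Epithelial genes leaned lower in the treated MG cells, while few mesenchymal genes were measured and these were split. Of 31 measured epithelial genes, 9 were lower (29.0%) and 1 higher (3.23%) past 1.5-fold, with a median of -0.34. The shares over all genes were 10.9% lower and 8.69% higher. TJP3, a scaffold of tight junctions, was at 1.60 in untreated non-MG, 0.98 in treated non-MG, 0.46 in untreated MG and -0.19 in treated MG cells, a ratio of -1.79. The 4 arrays were thus spread over a wide range with the arrays of the pair at its ends. CLDN4 and CLDN3, tight-junction claudins, had ratios of -1.10 and -0.97, GRHL2, a transcription factor that maintains epithelial genes, of -0.78 and JUP, the junction protein plakoglobin, of -0.69. CDH1, which codes for E-cadherin, was at 3.48 in untreated non-MG, 3.28 in treated non-MG, 2.82 in untreated MG and 2.79 in treated MG cells, a ratio of -0.69 (spot error 0.03). The 2 MG arrays differed by 0.03 in CDH1, and both lay below both non-MG arrays. EPCAM was at -0.17, KRT8 at 0.21 and KRT18 at 0.34, all within 1.5-fold, and OVOL2, a repressor of mesenchymal genes, was the 1 gene higher, at 1.16. After median centring 4 epithelial genes were lower and the median was -0.18.

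Of 32 mesenchymal genes, 12 were measured, 3 higher and 1 lower, beside 8.69% and 10.9% of all genes. Their median was -0.03 and became 0.12 after median centring. ZEB1, a repressor of CDH1, was at -1.66 in untreated non-MG, -0.99 in treated non-MG, -0.35 in untreated MG and 0.06 in treated MG cells, a ratio of 1.73 (spot error 0.20). Besides VIM and ZEB1, SPARC, a secreted matricellular protein, was higher at 0.77, and COL1A1, a fibrillar collagen, was lower at -0.67. Of the other transcription factors of the transition, SNAI1 was at 0.03 and TWIST1 at -0.33, and ZEB2, SNAI2, TWIST2, FOXC2, PRRX1 and TCF4 were not measured on both arrays. CDH2, TGFBI and THY1 were well above background on the treated MG array of the pair only, and their bounds were 1.43-fold, 1.55-fold and 1.52-fold. The fibroblast markers DCN, LUM, FAP, PDGFRB, COL1A2 and COL3A1 passed on 0 of the 4 arrays.

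Genes of hypoxia and glycolysis leaned lower in the treated MG cells. Hypoxia-inducible factor turns on glycolytic enzymes, glucose transporters and its own regulators when oxygen is low. All 36 measured genes of the list had ratios below 0, 21 of them past 1.5-fold (58.3%, beside 10.9% of all genes), and the median was -0.73. After median centring 33 were below 0 and 18 past 1.5-fold, with a median of -0.57, and after normexp correction 35 and 16, with a median of -0.49. ADM, a vasodilator peptide, was at 7.22 in untreated non-MG, 6.56 in treated non-MG, 5.72 in untreated MG and 5.43 in treated MG cells, a ratio of -1.79 (spot error 0.02 over 10 spots). DDIT4, an inhibitor of mTOR signalling, was at 7.41, 6.78, 6.05 and 5.82, a ratio of -1.59, and NDRG1, a stress-responsive growth inhibitor, had a ratio of -1.77. ADM and DDIT4 were lower on the MG arrays than on the non-MG arrays, and lower on the treated than on the untreated array of each cell type. Among the enzymes, ALDOC, a fructose-bisphosphate aldolase, had a ratio of -1.80, HK2, which phosphorylates glucose, of -1.50, ENO2, an enolase, of -1.20 and PGK1, a phosphoglycerate kinase, of -0.77. Other enzymes differed less, with LDHA at -0.32, GAPDH at -0.37, PKM at -0.21 and PGAM1 at -0.07. Of the regulators, PFKFB4, which makes an activator of glycolysis, was at -1.21, PDK1, a kinase that inhibits pyruvate dehydrogenase, at -1.05 and EGLN1, an oxygen sensor, at -0.91. The median of the 36 genes was -0.64 for untreated MG over untreated non-MG cells, -0.53 with both treated, -0.04 for the drug in MG cells and -0.19 for the drug in non-MG cells. For CA9, a carbonic anhydrase undetected in treated MG cells, the untreated non-MG cells were higher by at least 1.55-fold.

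The letters ACGTGC, which hold the core of the element bound by hypoxia-inducible factor, occur on either strand in 1875 of 27305 promoters (6.87%) and in 896 of 10181 promoters of measured genes (8.80%). Of 34 promoters of the hypoxia list, 11 held them. The 10 measured genes among these had 8 lower past 1.5-fold and a median of -1.09, and the 22 measured genes without them had 10 lower and a median of -0.45. Lists that did not lean lower held the letters too, the mitosis list in 5 of 28 promoters and the amino acid and endoplasmic reticulum stress list in 5 of 23. The epithelial list, which leaned lower, held them in 1 of 16. Here too a match in letters is no evidence of binding. ANKRD37 and ALDOC are printed, since they had the lowest ratios of the list, at chr4:185396591-185396890 (plus strand) and chr17:28576846-28577145 (minus strand), with ACGTGC or its reverse complement GCACGT in capitals.
ANKRD37: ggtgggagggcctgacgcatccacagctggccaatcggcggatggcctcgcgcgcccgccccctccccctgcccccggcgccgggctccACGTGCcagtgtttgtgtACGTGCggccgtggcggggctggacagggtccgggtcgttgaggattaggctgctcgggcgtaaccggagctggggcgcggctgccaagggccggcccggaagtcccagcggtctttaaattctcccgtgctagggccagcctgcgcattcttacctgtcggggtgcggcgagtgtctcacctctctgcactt
ALDOC: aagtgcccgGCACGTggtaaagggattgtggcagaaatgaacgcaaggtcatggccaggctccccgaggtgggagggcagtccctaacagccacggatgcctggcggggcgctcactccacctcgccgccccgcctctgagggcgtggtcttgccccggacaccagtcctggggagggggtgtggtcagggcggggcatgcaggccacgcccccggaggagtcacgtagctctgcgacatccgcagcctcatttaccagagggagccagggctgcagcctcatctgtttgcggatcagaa

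Replication and mitotic genes leaned higher in the treated MG cells. All 44 genes of DNA replication were measured, of which 43 had ratios above 0, with a median of 0.53 and RPA3 at -0.04. Past 1.5-fold 19 were higher, a share of 43.2% beside 8.69% of all genes. CDC6, which loads the replicative helicase, was at -2.82 in untreated non-MG, -2.33 in treated non-MG, -1.65 in untreated MG and -1.35 in treated MG cells, a ratio of 1.47 with a spot error of 0.34. ORC6, a subunit of the origin recognition complex with 10 spots, was at 0.48, 0.75, 1.56 and 1.74, a ratio of 1.26 (spot error 0.03). In both genes the MG arrays lay above the non-MG arrays. MCM10, a helicase-associated protein, was at 1.11, GINS3, part of the helicase, at 1.05, RRM2, the regulated subunit of ribonucleotide reductase, at 0.98 and PCNA, the sliding clamp, at 0.94. All 33 mitotic genes had ratios above 0, with 7 past 1.5-fold (21.2%), or 15 after median centring, and a median of 0.41. CENPE, a kinetochore motor, was at 1.15 in untreated non-MG, 0.77 in treated non-MG, 2.21 in untreated MG and 2.13 in treated MG cells, a ratio of 0.98. MAD2L1, a spindle checkpoint protein, had a ratio of 0.79, TOP2A, a topoisomerase, of 0.76 and CCNB1, a mitotic cyclin, of 0.74. The medians of the 2 lists were 0.64 and 0.42 for untreated MG over untreated non-MG cells, and -0.10 and -0.04 for the drug in MG cells.

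Of 49 measured histone genes, 11 were higher past 1.5-fold (22.4%, beside 8.69% of all genes), or 17 after median centring and 6 after normexp. Their median was 0.39, compared with 0.66 for untreated MG over untreated non-MG cells and -0.40 for the drug in MG cells. H3C4, a replication-dependent histone, was at 4.72 in untreated non-MG, 5.20 in treated non-MG, 6.05 in untreated MG and 5.46 in treated MG cells, so that the treated MG array lay between that of untreated MG cells and the non-MG arrays. Histone genes of a class are close copies, and their probes may share signal. TTCCCGC or GCGGGAA, letters found in sites of E2F factors, occurred in 16 of 37 promoters of the replication list. They occurred in 1792 of 27305 promoters (6.56%) and in 1057 of 10181 promoters of measured genes (10.4%). Of the 16 genes 6 were higher past 1.5-fold, as were 10 of the 21 without the letters. TTTGAA or TTCAAA, the letters of the cell-cycle homology element, occurred in 19 of 28 promoters of the mitosis list. They occurred in 4212 of 27305 promoters (15.4%) and in 959 of 10181 promoters of measured genes (9.42%). Of the 19 genes 3 were higher past 1.5-fold, as were 2 of the 9 without the letters. The promoters of GINS3 and MAD2L1 are shown, the members with the largest ratios among those that hold each motif, at chr16:58392221-58392520 (plus strand) and chr4:120066799-120067098 (minus strand), with TTCCCGC or GCGGGAA in capitals in the first and TTTGAA or TTCAAA in the second.
GINS3: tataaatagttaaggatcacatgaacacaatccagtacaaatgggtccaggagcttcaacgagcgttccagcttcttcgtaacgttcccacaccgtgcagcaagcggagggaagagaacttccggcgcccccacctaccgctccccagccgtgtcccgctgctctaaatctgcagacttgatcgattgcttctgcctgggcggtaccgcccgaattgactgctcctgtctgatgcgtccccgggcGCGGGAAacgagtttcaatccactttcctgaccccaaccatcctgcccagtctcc
MAD2L1: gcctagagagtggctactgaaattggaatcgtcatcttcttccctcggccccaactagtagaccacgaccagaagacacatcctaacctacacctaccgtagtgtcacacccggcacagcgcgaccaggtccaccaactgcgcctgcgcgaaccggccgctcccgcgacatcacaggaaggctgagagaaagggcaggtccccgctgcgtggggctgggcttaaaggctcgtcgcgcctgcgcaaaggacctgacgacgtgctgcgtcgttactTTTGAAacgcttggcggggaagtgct

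Targets of the tumour suppressor p53, which halts or kills damaged cells, were higher for 9 of 28 measured genes, or 14 after median centring and 5 after normexp, and lower for 0, with a median of 0.42. The shares over all genes were 8.69% higher and 10.9% lower. FAS, a death receptor, was at -0.64 in untreated non-MG, -0.45 in treated non-MG, 0.13 in untreated MG and 0.99 in treated MG cells, a ratio of 1.64 over 2 probes. PLK2, a kinase of the stress response, was at 1.98, 2.03, 3.75 and 3.80, a ratio of 1.82. FAS was thus highest on the treated MG array alone, whereas PLK2 was alike on both MG arrays. CDKN1A, the cell-cycle inhibitor p21, had a ratio of 0.83, MDM2, which degrades p53, of 0.78 over 4 probes and BAX, which opens the mitochondrial membrane, of 0.71. GADD45A, at -0.39, and BBC3, at -0.27, lay within 1.5-fold. The median of the list was 0.12 for untreated MG over untreated non-MG cells, 0.34 for the drug in MG cells and 0.17 for the drug in non-MG cells.

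Interferon-stimulated genes were split. Of 35 measured genes, 6 were lower (17.1%, beside 10.9% of all genes) and 2 higher (5.71%, beside 8.69%), with a median of -0.12. After median centring 5 were lower and 4 higher, with a median of 0.04. IFITM1, a membrane protein that blocks entry of viruses, was at 3.68 in untreated non-MG, 3.23 in treated non-MG, 2.23 in untreated MG and 2.36 in treated MG cells, a ratio of -1.32. Its relatives IFITM2 and IFITM3 had ratios of -1.04 and -1.07, and the 3 genes have similar sequences. All 3 were lower on both MG arrays than on both non-MG arrays. OAS3, an enzyme of the antiviral response, and IFI35 were higher, at 0.63 and 0.62. Of 18 genes of MHC class I presentation, 16 lay within 1.5-fold, with HLA-C lower at -0.77 and PSMB10, an immunoproteasome subunit, higher at 0.63.

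Cancer-testis genes, which are normally expressed in germ cells and silenced by methylation elsewhere, were rarely measured on both arrays. Of 35 on the array, 10 were measured, 5 of them higher and 1 lower, beside 8.69% and 10.9% of all measured genes. Another 11 of the list were well above background in the treated MG cells and not in the untreated non-MG cells, compared with 931 of 40909 over the array. MAGEA4 was at -0.41 in untreated non-MG, 0.76 in treated non-MG, -0.16 in untreated MG and 1.31 in treated MG cells, a ratio of 1.72. PAGE2 had a ratio of 1.63 over 2 probes, and TDRD6, a germ-granule protein, was the 1 lower gene, at -1.14. MAGEA9 was at least 17.2-fold higher in treated MG cells, CTAG2 at least 11.6-fold, DDX43 at least 5.03-fold and SSX2 at least 3.02-fold. Several of these families hold near-identical copies that a probe may not tell apart.

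In all, 522 genes with a symbol were well above background in the treated MG cells and not in the untreated non-MG cells, and 547 the other way. The bound was past 4-fold for 73 of the first group and for 4 of the second. TKTL1, a transketolase-like protein, had intensities of 5.05 in untreated non-MG, 470 in treated non-MG, 8.64 in untreated MG and 1043 in treated MG cells, at least 93.8-fold higher in the pair. XAGE1A, a cancer-testis antigen with a near-identical copy, was at least 87.5-fold higher, and UCHL1, a ubiquitin hydrolase of neurons, at least 55.0-fold. Each of the 3 genes was well above background on both treated arrays and on neither untreated array. LINC01559 and MUCL1 were well above background on the treated MG array alone, at least 19.1-fold and 15.8-fold higher. On the other side CIB4, a calcium-binding protein, had intensities of 64.6 in untreated non-MG, 32.0 in treated non-MG, 3.10 in untreated MG and 3.04 in treated MG cells, at least 6.05-fold higher in the untreated non-MG cells. DIRAS3, an imprinted small GTPase, was at least 4.30-fold higher there, and was well above background on neither MG array.

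For the lists that follow, 8.69% of all measured genes were higher and 10.9% lower past 1.5-fold. Annexins and S100 proteins had 5 higher and 3 lower of 21, from ANXA10 at -2.85 to ANXA8L1 at 2.83, with ANXA3 at 1.63 (spot error 0.02 over 10 spots) and S100A2 at 1.57. Of 27 adhesion and matrix genes 4 were higher (14.8%) and 2 lower (7.41%), not far from those shares. TM4SF1, a membrane protein of migrating cells, was at -2.03 in untreated non-MG, -1.70 in treated non-MG, 0.24 in untreated MG and 0.34 in treated MG cells, a ratio of 2.37. MMP1, a collagenase, had a ratio of 1.12, and ITGA3, a laminin receptor subunit, of -0.94. Stress genes of the endoplasmic reticulum and of amino acid supply were higher for 6 of 26 and lower for 1, with CHAC1, which breaks down glutathione, at 1.41, PSAT1, of serine synthesis, at 1.16, SLC7A11, the cystine transporter, at 1.12 and DDIT3 at -0.62. Of 30 genes of cholesterol and fatty acid synthesis 5 were lower, or 3 after median centring and 2 after normexp, and 0 higher, with a median of -0.25, led by SREBF2, the transcription factor of the pathway, at -0.88. Only 8 of 29 intestinal genes were measured, with KRT20 and CEACAM1 higher at 2.08 and 1.96 and MUC2 and DHRS2 lower at -0.76 and -2.47. No gene of the 17 of the DNA methylation machinery passed 1.5-fold, with DNMT1, the maintenance methyltransferase that the drug traps, at 0.33, DNMT3B at 0.18 and TET1 at -0.43. After median centring 3 of the 17 passed it. Reference genes had a median of -0.03 over 18, or 0.13 after median centring, with ACTB at 0.04, HPRT1 at 0.01, TFRC, the transferrin receptor, at 1.48 and PGK1 at -0.77.

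**Figure D4:**
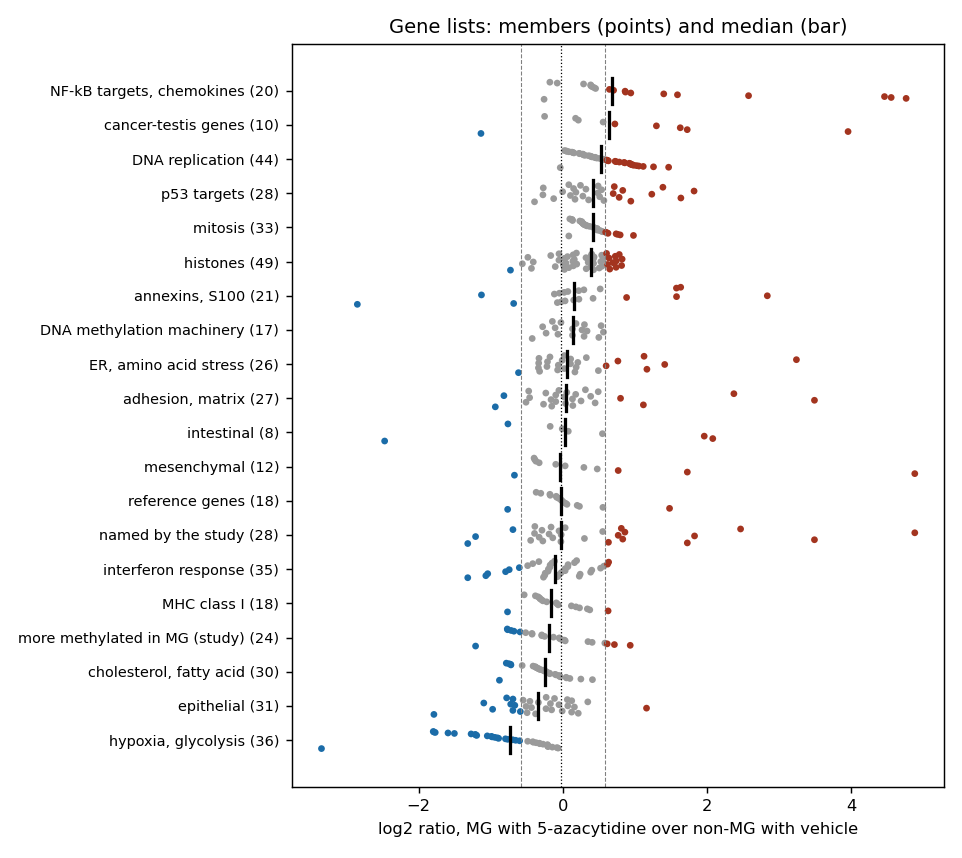
Log2 ratio of treated MG over untreated non-MG cells (x axis) for the measured members of each list (points, with their number in brackets) and their median (bar). Dashed lines mark 1.5-fold and the dotted line the median of all genes, -0.03. The hypoxia list lies wholly left of 0 and the mitosis list wholly right of it.

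Of 28 measured genes that the study names from these cells, 10 were higher, 3 were lower and 15 lay within 1.5-fold. Over all genes 8.69% were higher and 10.9% lower. The study chose some of them on the same arrays and took others from earlier work, and the direction of the first kind is not independent evidence. DCLK1, a kinase that marks tuft and tumour stem cells, was at -1.54 in untreated non-MG, -1.69 in treated non-MG, 1.42 in untreated MG and 0.93 in treated MG cells, a ratio of 2.46. TGM2, a crosslinking transglutaminase, was at -0.90, -0.34, 0.26 and 0.92, a ratio of 1.83. DCLK1 was lower with the drug in MG cells while TGM2 was higher with it in both cell types. SNAI1, MMP9, HMGA2 and IGF2 lay between -0.28 and 0.03. The direction was not always the one the study gives for MG cells. It reports TWIST1, IGF2, FOXO3 and LOXL2 as higher and HOXA7 as lower. For untreated MG over untreated non-MG cells these were at -0.30, -0.30, -0.59, -0.25 and 0.29, with only FOXO3 past 1.5-fold. DCLK1, TGM2 and MIA, reported as higher, were at 2.96, 1.16 and 3.02 in that comparison. ECM1 was at least 3.06-fold higher in treated MG cells, and VTN and NFE2L2 were at least 1.19-fold and 1.61-fold higher in untreated non-MG cells.

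The genes that the study lists as more methylated in MG cells were selected by it for being low in MG cells and higher with the drug there, on these arrays, so how they stand in the treated MG cells was partly set by that choice. Of 34 on the array, 24 were measured on both arrays of the pair, 15 of them within 1.5-fold, with a median of -0.19. Another 6 were lower and 3 higher, 25% and 12.5%, beside 10.9% and 8.69% of all genes. On the 14 measured on all 4 arrays the median was -0.35 for the pair and -0.72 for untreated MG over untreated non-MG cells. ZNF350, a zinc finger repressor, was at -1.47 in untreated non-MG, -1.13 in treated non-MG and -2.68 in treated MG cells, a ratio of -1.21 (spot error 0.32), and was not well above background in untreated MG cells. The treated MG array was thus the lowest of the 3 on which it was measured. The reading in untreated MG cells, which did not pass the background filter, was lower still at -5.25. BEX5 and SGPP2 were lower at -0.77 each and MMP25, a membrane-bound metalloproteinase, at -0.72. NECTIN4, an adhesion protein, was higher at 0.93 and RNASEH1, which cuts RNA in hybrids with DNA, at 0.71. SLIT3, ZNF211, SNORD24 and HLA-DPB2 lay between -0.04 and 0.03. After median centring 4 were higher and 3 lower, and with normexp correction 0 of the 24 passed 1.5-fold. The normexp offset of 50 shrinks the ratios of dim genes, so that count does not show that these genes were alike. The promoters of VIM, UCHL1 and ZNF350 are printed with each CG in capitals, since CG is the site of methylation, at chr10:17227991-17228290 (plus strand), chr4:41256678-41256977 (plus strand) and chr19:51986791-51987090 (minus strand). They hold 10, 25 and 17 CG, compared with a median of 26 over 10181 promoters of measured genes.
VIM: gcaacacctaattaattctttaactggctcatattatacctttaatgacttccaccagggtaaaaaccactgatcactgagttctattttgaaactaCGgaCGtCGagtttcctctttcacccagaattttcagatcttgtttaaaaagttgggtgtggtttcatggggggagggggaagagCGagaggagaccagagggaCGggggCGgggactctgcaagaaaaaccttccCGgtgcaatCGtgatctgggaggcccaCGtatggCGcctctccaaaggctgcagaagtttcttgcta
UCHL1: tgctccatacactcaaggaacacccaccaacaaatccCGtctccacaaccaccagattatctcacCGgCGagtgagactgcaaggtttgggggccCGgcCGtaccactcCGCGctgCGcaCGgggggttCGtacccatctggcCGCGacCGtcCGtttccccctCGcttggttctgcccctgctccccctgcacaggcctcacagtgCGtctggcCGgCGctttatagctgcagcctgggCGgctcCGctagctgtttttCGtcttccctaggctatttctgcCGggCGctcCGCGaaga
ZNF350: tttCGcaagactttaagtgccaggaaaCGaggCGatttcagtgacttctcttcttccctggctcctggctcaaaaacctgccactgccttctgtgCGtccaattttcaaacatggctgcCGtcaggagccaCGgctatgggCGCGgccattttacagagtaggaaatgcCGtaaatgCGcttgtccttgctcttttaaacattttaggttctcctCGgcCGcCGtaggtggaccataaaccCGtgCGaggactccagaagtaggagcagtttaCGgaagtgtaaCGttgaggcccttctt

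The median number of CG in the promoter was near that of all measured genes in the higher and the lower genes, and lower in genes detected on 1 array of the pair and in genes that turned direction between the diagonal pairs of arrays. The median was 26 in 947 promoters of higher genes, 25 in 904 of lower genes and 26 in 8330 of genes within 1.5-fold. Fewer than 5 CG were found in 104 of the 904 promoters of lower genes, in 48 of the 947 of higher genes (5.07%) and in 458 of the 8330 of the remaining genes (5.50%), so that the share was largest in the lower genes. In genes lower in both diagonal pairs it was 34 of 230 (14.8%). The 58 promoters of genes higher in treated MG over untreated non-MG cells and lower in the other diagonal pair had quartiles of 7 and 22 CG, compared with 18 and 34 over all measured genes. In 399 promoters of genes well above background in the treated MG cells and not in the untreated non-MG cells the median was 13, and in 386 promoters of genes with the reverse it was 15. The shares with fewer than 5 CG were 21.6% and 31.3%, above that of the lower genes. Methylation was not measured in these files.

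The genes that differed most between the untreated cell types were followed into the treated MG cells. Both comparisons use the same array of untreated non-MG cells, so their values are set side by side without a measure of likeness. The 10 highest genes had a median log2 ratio of 2.48 with vehicle and of 2.42 in treated MG cells, where 9 were higher past 1.5-fold. They include APOBEC3G, a cytidine deaminase that restricts retroviruses, with 2.66 in the treated MG cells, HOXB8, a patterning factor, with 2.38, and SEMA6B, a guidance protein, with 2.10. SNORA70F was the exception, at 0.15 in untreated non-MG, -0.12 in treated non-MG, 2.31 in untreated MG and -0.12 in treated MG cells. The 10 lowest genes had a median of -2.33 with vehicle and of -1.54 in treated MG cells, where 7 were lower past 1.5-fold. For BTN2A2, VASN and ZNF709 the treated MG array returned to within 1.5-fold of the untreated non-MG array, with ratios of -0.35, -0.44 and 0.24. VASN, an inhibitor of TGF-beta signalling, was at 1.72 in both non-MG arrays, -0.84 in untreated MG and 1.29 in treated MG cells. Each of these 3 genes rests on 1 probe with 1 spot, and the untreated MG array alone stood apart from the other 3. ANKRD37, ANXA10, DHRS2, ARRDC4 and LINC00659 had ratios of -2.33 or lower in treated MG cells.

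The 4 arrays form another pair, untreated MG over treated non-MG cells, that shares no array with the first and in which the cell types stand the same way round and the treatments the opposite way. On the 15707 genes, 1364 were higher (8.68%) and 1723 lower (11%) in treated MG over untreated non-MG cells, and 787 were higher (5.01%) and 1093 lower (6.96%) in the other pair. In both pairs 306 genes were higher, 22.4% of the first list and 38.9% of the second, and 410 were lower, 23.8% and 37.5%. A further 92 genes were higher in the first pair and lower in the second, 6.74% and 8.42% of these lists. The reverse held for 15 genes, 0.871% and 1.91%. All 4 arrays share 1 slide and 1 scale, so the lists are not independent measurements of it.

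Among genes higher in both pairs the smaller of the 2 ratios was largest in MIA, DCLK1, APOBEC3G, ANXA8L1, TM4SF1, CEACAM1, PLK2 and NRIP1, a nuclear receptor corepressor. These 8 genes had a median of 2.42 in the first pair and 2.19 in the second, and the treated and untreated arrays of each cell type lay within 1.5-fold for all 8. Of the 15707 genes, only 5.12% passed 1.5-fold with the drug in MG cells and 3.58% in non-MG cells. That all 8 lay within it is therefore near what held for genes at large. Among genes lower in both, EFEMP2, an elastic fibre protein, had a ratio of -1.75 in the first pair and FOSB, an immediate-early factor, of -1.66, beside EGR1 at -2.04. Their 8 genes had medians of -2.40 and -1.85. The 8 genes with the largest ratios among those that turned direction were CXCL1, CXCL2, CTAG1A, LINC00958, H19, GCNA, DENND2A and LY6K, with a median of 3.43 in the first pair and -2.64 in the second. Each of these 8 was higher with the drug past 1.5-fold in both cell types, by a median of 3.10 in MG and 2.80 in non-MG cells. For any gene, the first pair's ratio minus the second's equals the drug's ratio in MG cells plus that in non-MG cells. A large sum of the drug ratios was therefore set by how these 8 genes were picked. Only its split between the cell types was not. DENND2A, an exchange factor of vesicle traffic, was at -2.73 in untreated non-MG, -0.87 in treated non-MG, -1.63 in untreated MG and -0.04 in treated MG cells. The 8 genes named among those that turned the opposite way had smaller ratios in the first pair, from -1.02 in PEBP4 to -0.65 in MDGA1. LRP2, an endocytic receptor, was at -0.74, CD86, a costimulatory protein of immune cells, at -0.75 and ZNF704 at -0.86.

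**Figure D5:**
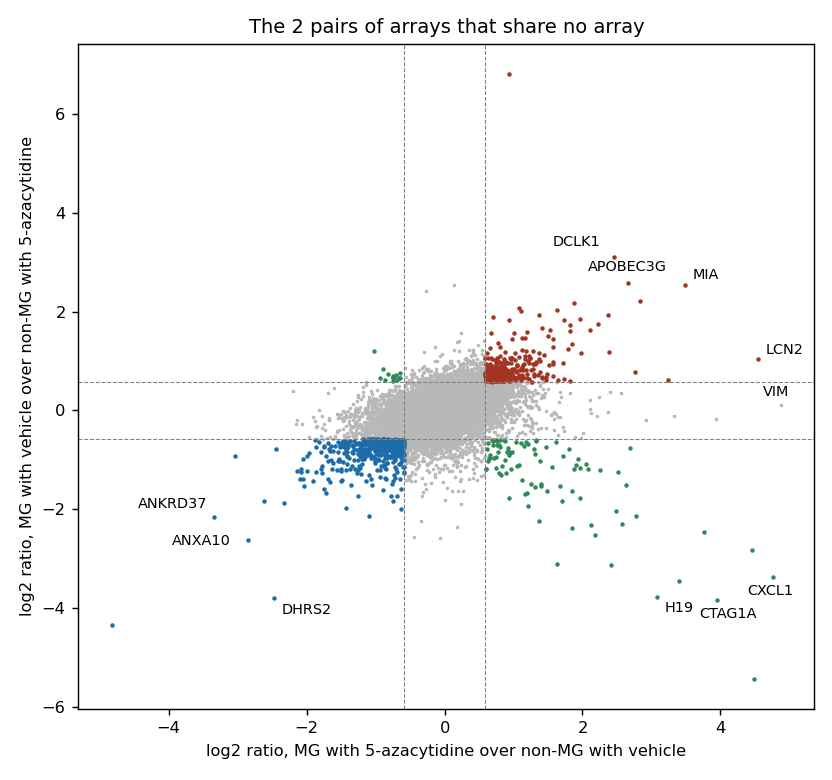
Log2 ratio of treated MG over untreated non-MG cells (x axis) and of untreated MG over treated non-MG cells (y axis) for 15707 genes, with dashed lines at 1.5-fold. Red marks the 306 genes higher and blue the 410 genes lower in both pairs, and green the 92 and 15 genes past 1.5-fold in opposite directions, with CXCL1, CTAG1A and H19 at the lower right and MIA, APOBEC3G and DCLK1 at the upper right.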

How the data were processed

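RNA from MG and non-MG HCT116 cells with vehicle or 5-azacytidine (5 µM, 48 h) was hybridised to 4 one-colour Agilent arrays, 1 per condition. The deposited scanner files hold intensity values that the authors extracted with Agilent Feature Extraction, background-subtracted by that software. A second deposited table gives the authors' log2 values, normalised and centred per probe, used as an alternative, in which 24161 of 24189 probes matched and pair differences lay within 0.01 of those from the scanner files after a constant of -0.145. Control spots and outlier spots were left out, repeat spots of a probe were averaged, and log2 intensity minus the 75th percentile of each array was averaged over the probes of a gene that were well above background on both arrays of the pair. Genes past 1.5-fold were counted. With 1 array per condition no test was run, and the number of arrays limits the precision. The genes with a symbol named are the 15 with the largest ratios each way, the 10 that differed most each way between the untreated cell types, 8 of each class of the 2 diagonal pairs, up to 4 of each list by size, and the genes the study names, with other list members given as illustration after their values were seen. Members and lists were chosen with earlier results of these data known. Alternatives were median centring, quantile normalisation, normexp (offset 50) with limma 3.58.1 in R 4.3.3, other filters, thresholds and probe rules, and the authors' values. Calculations used Python 3.11.15, numpy 2.4.6 and pandas 2.3.3, and the counting was tested on simulated data. A withheld item is not reported here.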

Additional observations from a re-analysis of the deposited data

Results flagged for a closer look

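ZBTB20, a zinc finger transcription factor, had a log2 ratio of 5-azacytidine over vehicle of 1.64 in MG cells and of -0.67 in non-MG cells, so that the cell types moved in opposite directions. Its log2 levels were 1.88 in untreated non-MG, 1.21 in treated non-MG, -0.39 in untreated MG and 1.25 in treated MG cells, with the untreated MG array below the other 3. Treated MG over untreated non-MG cells had a log2 ratio of -0.63. Whether the cell types differ here was not tested, since each condition has 1 array and the gene 1 probe with 1 spot.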

How the results depend on the processing

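No paired analysis was possible because each condition has 1 array. All 4 arrays lay on 1 slide, so the slide as a block was not run. Of 127 named genes past 1.5-fold, all 127 stayed past it in the same direction with the authors' values and with the brightest probe, 126 with quantile normalisation, 120 with no filter, 118 with signals raised to the detection limit, 114 after median centring and 88 after normexp. The authors' values differ from these by little more than a constant, and many named genes have 1 probe. Those settings could therefore change little. Normexp, with its offset of 50, lowers the counts of dim genes past 1.5-fold by construction. Without the filter the log2 ratio of FER1L4 (0.026) and the log2 ratio of OAS3 (-0.00256) changed sign. The cause of the changes below was not tested.

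Genes higher and lower past 1.5-fold numbered 2376 and 1090 after median centring, 692 and 571 after normexp, 4208 and 6645 with no filter, and 334 and 474 at a 2-fold threshold. Over the 2 diagonal pairs, genes higher in both numbered 1259 after median centring, 713 with no filter, 45 at 2-fold and 572 at 1.4-fold. Genes lower in both numbered 109, 2051, 55 and 664 under these settings and 67 after normexp. Genes higher and then lower numbered 1084 with no filter, 41 at 2-fold, 32 after normexp and 216 with raised signals. Genes lower and then higher numbered 36 after median centring, 599 with no filter, 1 at 2-fold, 29 at 1.4-fold, 1 after normexp and 25 with raised signals. The median absolute ratio of the other diagonal pair was 0.373 after median centring. With raised signals it was 0.087 for treated MG over untreated non-MG cells, 0.011 between the untreated and 0.111 between the treated cell types, below the 0.198 of the drug in non-MG cells and the 0.187 of the other diagonal pair.

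List medians after median centring were 0.69 for replication, 0.57 for mitosis, -0.18 for epithelial, -0.57 for hypoxia, 0.043 for interferon, 0.83 for NF-kB and 0.58 for p53 genes. After normexp they were -0.21 for epithelial, -0.49 for hypoxia, 0.43 for NF-kB and 0.30 for p53 genes. With raised signals they were 0.064 for interferon, 0.49 for NF-kB and 0.30 for p53 genes. The p53 median was 0.34 with no filter and the epithelial median -0.23 with the brightest probe. The smallest signals well above background, 9.95 to 11.8 intensity units, limit what can be said of dim genes.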
